A study of Mus musculus with 2 samples.

Results

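The 48 genes described here encode the machinery that takes a cell from G2 phase through mitosis and division: the mitotic cyclins with CDK1, the mitotic kinases, regulators of the anaphase-promoting complex (APC/C), the condensins and the proteins of cytokinesis. They were chosen by gene symbol from their known roles, with earlier results of these data known, and all 48 were found among the 22095 genes of the expression table. RNA came from C2C12 cells, an established line of mouse myoblasts, and polyadenylated RNA was sequenced in 1 library from cells transfected with a small interfering RNA against the long noncoding RNA Malat1 (siMalat1) and 1 library from cells transfected with a negative control (siNC). The cells were grown in medium with fetal bovine serum. By the study's account, they were differentiated for 2 days after transfection, in medium with horse serum, in which myoblasts stop dividing and fuse to form myotubes. With 1 library per condition no difference has a replicate check, so no p-value or SE is given, and every statement below is about these 2 libraries of a single cell line.

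Entry into mitosis depends on CDK1 bound to cyclin B, which is held inactive by phosphorylation until CDC25 phosphatases remove it. Polo-like and Aurora kinases then direct the building of the spindle, condensins compact the chromosomes, and the APC/C with its activator CDC20 marks cyclin B and securin for destruction, which frees separase to part the sister chromatids. An actomyosin ring placed by RhoA and its regulators finally divides the cell. Transcripts of many of these genes are scarce in resting cells and in G1 and accumulate towards G2, and a promoter element called the CHR, read by the MuvB complex together with B-MYB and FOXM1, is a known part of that control. NF-Y, which binds CCAAT boxes, acts at many of the same promoters.

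The promoter letters are shown first, because they are what most of these genes share beyond their roles. RefSeq windows of GRCm38.p6, from 250 bases before to 50 bases after the gene start, were found for 38 of the 48 genes, in 43 windows. The 10 genes with no entry were Ccna2, Cdc25c, Aurkb, Incenp, Smc4, Cdca2, Tpx2, Dlgap5, Shcbp1 and Foxm1. Of 7 genes the 100 bases before the start are printed 5′ to 3′ on the gene's own strand, chosen to span the roles from CDK1 to cytokinesis, with Ube2s as the gene that went the other way in the measurements. Capitals mark the CHR letters TTTGAA and the CCAAT box, each on either strand, so that TTCAAA and ATTGG are the same letters on the opposite strand. All of the printed stretches but that of Ube2s hold the CHR letters, so they do not stand for the whole set. Of the 38 genes with a window, 13 have no CHR letters in it. In others, such as Plk1, the CHR letters lie only after the start. Where a gene has several windows, the one with the most CHR and CCAAT matches before the start is printed. The stretches lie at chr10:69352913-69353012 on the minus strand (Cdk1), chr4:118437344-118437443 on the minus strand (Cdc20), chr2:164769829-164769928 on the plus strand (Ube2c), chr15:102296193-102296292 on the plus strand (Espl1), chr5:45669825-45669924 on the plus strand (Ncapg), chr7:80294376-80294475 on the plus strand (Prc1) and chr7:4812341-4812440 on the minus strand (Ube2s).
Cdk1: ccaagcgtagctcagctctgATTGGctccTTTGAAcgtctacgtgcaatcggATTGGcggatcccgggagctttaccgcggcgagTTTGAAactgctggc
Cdc20: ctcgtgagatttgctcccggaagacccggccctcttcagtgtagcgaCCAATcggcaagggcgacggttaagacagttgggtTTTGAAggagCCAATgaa
Ube2c: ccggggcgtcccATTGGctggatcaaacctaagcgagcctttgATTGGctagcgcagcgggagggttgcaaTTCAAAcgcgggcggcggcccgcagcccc
Espl1: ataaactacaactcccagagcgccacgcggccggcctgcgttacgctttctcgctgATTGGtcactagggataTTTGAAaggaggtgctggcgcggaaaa
Ncapg: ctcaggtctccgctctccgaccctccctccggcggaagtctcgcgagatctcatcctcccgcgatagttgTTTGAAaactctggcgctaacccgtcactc
Prc1: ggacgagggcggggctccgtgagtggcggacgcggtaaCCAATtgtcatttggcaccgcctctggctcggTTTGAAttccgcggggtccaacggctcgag
Ube2s: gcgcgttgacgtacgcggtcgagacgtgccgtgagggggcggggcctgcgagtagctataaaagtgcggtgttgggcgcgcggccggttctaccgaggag

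In the libraries, 47 of the 48 genes had a lower FPKM (a level per transcript length and per library size) in siMalat1 than in siNC, and Ube2s alone was higher. All 48 were among the 11132 genes whose mean FPKM was 1 or more, and in these genes, called all genes tested from here on, the share with a lower FPKM in siMalat1 was 57.5%. At least 1.5-fold lower on the scale of log2(FPKM + 0.1) were 20 of the 48 genes, against 1.93% of all genes tested, and none of the 48 was 1.5-fold higher, against 2.39% of all genes tested. The count of 20 rests on the pseudocount, and with 1 FPKM added in place of 0.1 it was 10, against 0.88% of all genes tested. The median difference, siMalat1 minus siNC, was -0.54 over the 48 genes and -0.04 over all genes tested. The differences ran from -0.89 for Gtse1 to 0.31 for Ube2s, and none of the 48 was lower by as much as 2-fold, against 0.377% of all genes tested. These are RNA levels of a mixed culture, in which fewer cells in G2 and mitosis and less RNA per such cell cannot be told apart.

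**Figure D1:**
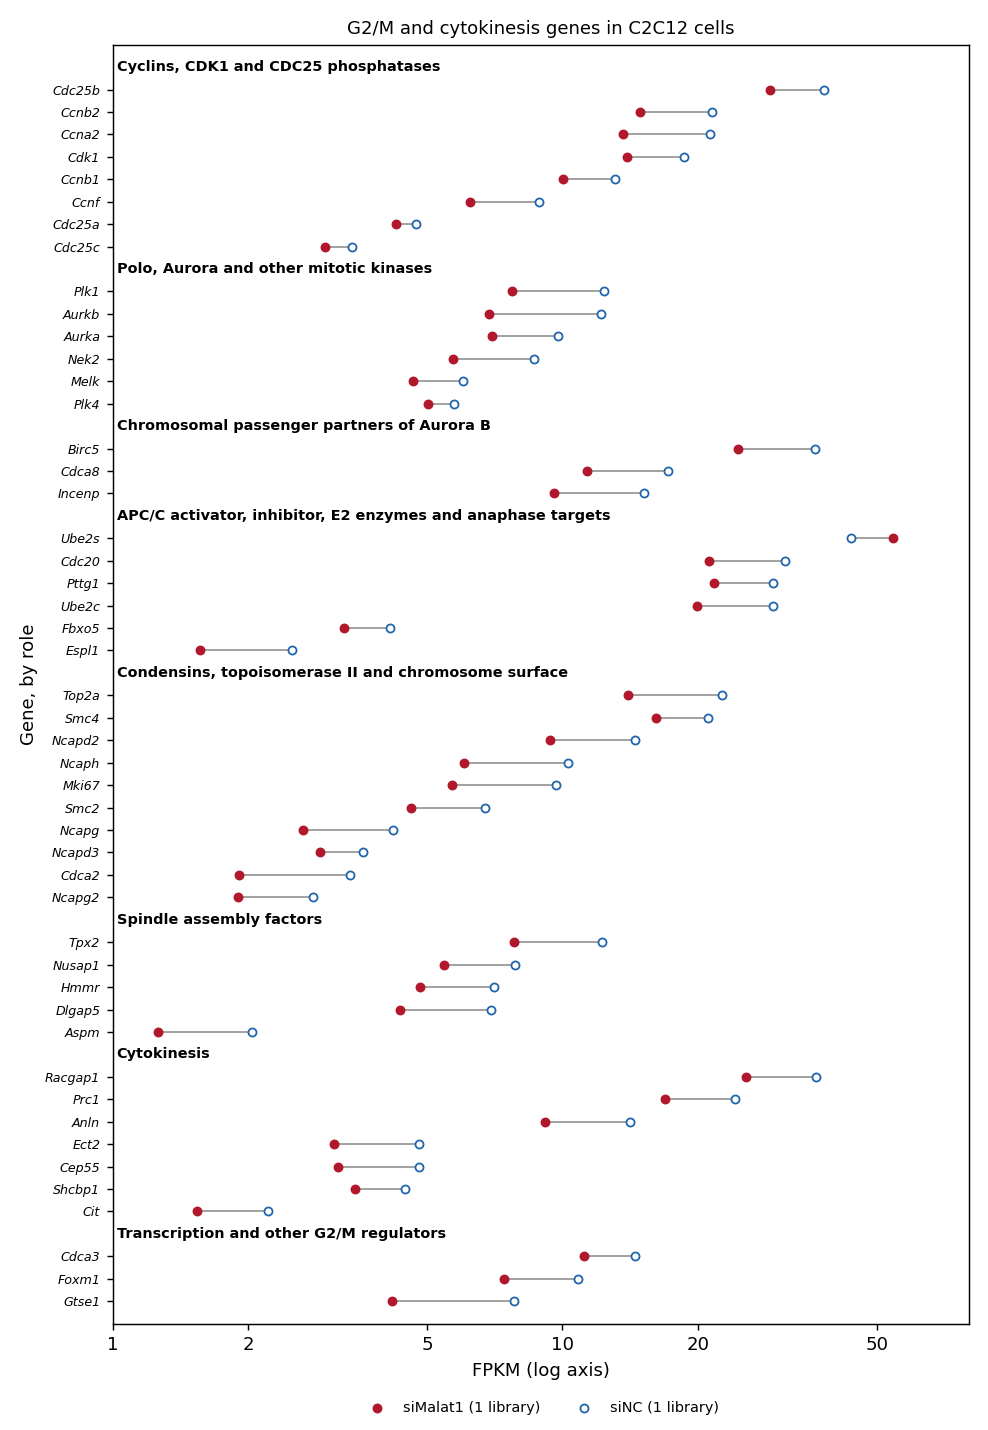
FPKM (log axis) of the 48 genes in siMalat1 (filled red points) and siNC (open blue points), 1 library each, grouped by role, with the genes of a group in order of FPKM in siNC and a line joining the 2 values of a gene. The red point lies to the left of the blue one for 47 genes and to the right for Ube2s (54.4 FPKM in siMalat1 and 43.9 FPKM in siNC).

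Summed over the 48 genes, 474 FPKM were measured in siMalat1 and 653 FPKM in siNC. Without Ube2s, the most abundant of them, the sums were 419.6 FPKM in siMalat1 and 609 FPKM in siNC. The median gene had 6.54 FPKM in siMalat1 and 10.1 FPKM in siNC, and no gene was at 0 in either library. The sums over all 22095 genes were 502715 FPKM in siMalat1 and 484715 FPKM in siNC. Malat1 itself had 34.2 FPKM in siMalat1 and 41.8 FPKM in siNC, a difference of -0.29.

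Markers of myogenic cells, which check the label, were plentiful in both libraries, and most of them differed in the other direction from the mitotic genes. The 12 markers ranged from 11.1 to 5199 FPKM in siMalat1 and from 5.81 to 3326 FPKM in siNC, and their sums were 10119.6 FPKM in siMalat1 and 7411 FPKM in siNC. Of the 12, 9 were higher in siMalat1, against 42.5% of all genes tested. At least 1.5-fold higher were 4 of the 12, against 2.39% of all genes tested. Mef2c, a transcription factor of muscle, had 11.1 FPKM in siMalat1 and 5.81 FPKM in siNC. The other 3 of the 12 were lower, with Myf5, a factor of proliferating myoblasts, at 17.3 FPKM in siMalat1 and 23.8 FPKM in siNC, and Myod1 at 95.8 FPKM in siMalat1 and 113 FPKM in siNC. Their part in the result on the mitotic genes was not tested. Markers of other cell types were near 0. Their summed levels were 0.529 FPKM in siMalat1 and 0.199 FPKM in siNC for adipocytes, 0.835 FPKM in siMalat1 and 1.30 FPKM in siNC for leukocytes, and 0.338 FPKM in siMalat1 and 0.427 FPKM in siNC for endothelial cells, with Adipoq, Plin1, Cidec and Emr1 (named after their values were seen) listed at 0 in both libraries.

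The cyclins, CDK1 and the CDC25 phosphatases were all lower in siMalat1, by a median of -0.41, and 1 of the 8 was at least 1.5-fold lower. This was Ccna2, the cyclin A of S and G2 phases, with 13.7 FPKM in siMalat1 and 21.3 FPKM in siNC (-0.63, where a value in parentheses is here and below the difference on the log2 scale). The B cyclins, the partners of CDK1 in mitosis, had 10.0 FPKM in siMalat1 and 13.1 FPKM in siNC for Ccnb1 and 14.9 FPKM in siMalat1 and 21.6 FPKM in siNC for Ccnb2. Cdk1 had 13.9 FPKM in siMalat1 and 18.6 FPKM in siNC (-0.42). The kinase thus differed by about as much as Ccnb1 (-0.38) and by less than Ccna2 and Ccnb2 (-0.53). Ccnf, an F-box protein rather than a kinase partner, had 6.22 FPKM in siMalat1 and 8.88 FPKM in siNC.

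Of the CDC25 phosphatases, Cdc25a and Cdc25c were among the genes that differed least. Cdc25b, which starts CDK1 activation in G2, was the most abundant of the lower genes, with 29.0 FPKM in siMalat1 and 38.1 FPKM in siNC (-0.39). Cdc25a, which also acts at entry into S phase, had 4.26 FPKM in siMalat1 and 4.71 FPKM in siNC, and its difference of -0.14 was the smallest of the 47. Cdc25c had 2.96 FPKM in siMalat1 and 3.40 FPKM in siNC (-0.19). Among all genes tested, 28.3% lay below Cdc25a, against 0.476% below Gtse1.

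Among the mitotic kinases, the Aurora and Polo genes of the set were all lower, by amounts that differed between members. Aurkb, the catalytic subunit of the chromosomal passenger complex (chromosome 11, 68859145 to 68865164 in mm9), had 6.87 FPKM in siMalat1 and 12.2 FPKM in siNC, a 1.77-fold lower value. Aurka, the centrosome and spindle Aurora, had 6.96 FPKM in siMalat1 and 9.80 FPKM in siNC (-0.49). The Auroras thus stood at nearly the same level as each other in siMalat1, while Aurkb was the more abundant in siNC. Plk1, which acts from mitotic entry to cytokinesis, had 7.74 FPKM in siMalat1 and 12.4 FPKM in siNC (-0.67). Plk4, the kinase of centriole duplication, had 5.02 FPKM in siMalat1 and 5.73 FPKM in siNC (-0.19), one of the smallest differences of the set. Nek2, a kinase of centrosome separation, had 5.70 FPKM in siMalat1 and 8.64 FPKM in siNC, and Melk had 4.65 FPKM in siMalat1 and 6.01 FPKM in siNC.

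The partners of Aurora B in the chromosomal passenger complex were lower together with the kinase. The scaffold Incenp had 9.56 FPKM in siMalat1 and 15.2 FPKM in siNC (-0.66). Cdca8, which encodes borealin, had 11.4 FPKM in siMalat1 and 17.2 FPKM in siNC (-0.59). Birc5, which encodes survivin, had 24.5 FPKM in siMalat1 and 36.5 FPKM in siNC (-0.57). Their median was -0.59, and the summed level of the 3 partners was 45.4 FPKM in siMalat1 and 68.9 FPKM in siNC.

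The genes that activate, assist or restrain the APC/C or act just after it held both the highest of the 48 and 5 lower ones. Cdc20, the activator of the APC/C in mitosis, had 21.2 FPKM in siMalat1 and 31.3 FPKM in siNC (-0.56). Ube2c, the E2 enzyme that starts ubiquitin chains on APC/C substrates, had 19.9 FPKM in siMalat1 and 29.3 FPKM in siNC (-0.55). Ube2s, the E2 enzyme that extends those chains (chromosome 7, 4759616 to 4763942 in mm9), had 54.4 FPKM in siMalat1 and 43.9 FPKM in siNC (0.31). The E2 enzymes of the same ligase thus differed in opposite directions, and 93.0% of all genes tested had a lower difference than Ube2s.

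Downstream of the APC/C, Pttg1, the securin that inhibits separase, had 21.8 FPKM in siMalat1 and 29.4 FPKM in siNC (-0.43). Espl1, the separase itself, had 1.56 FPKM in siMalat1 and 2.50 FPKM in siNC (-0.65), so the protease was measured at a far lower level than its inhibitor in both libraries. Fbxo5, which encodes the APC/C inhibitor EMI1, had 3.27 FPKM in siMalat1 and 4.14 FPKM in siNC (-0.33).

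The core of the ligase did not share this pattern. Of 13 core APC/C subunits tested, 7 were lower (53.8%, against 57.5% of all genes tested) and 6 higher in siMalat1, none by 1.5-fold. Their summed level was 591 FPKM in siMalat1 and 598 FPKM in siNC. Their median difference was -0.0045, and its sign turned with the scaling of the libraries and without shared loci. The lowest was Anapc11, the RING subunit, with 14.1 FPKM in siMalat1 and 18.6 FPKM in siNC (-0.40), and the highest was Cdc16 with 44.2 FPKM in siMalat1 and 39.7 FPKM in siNC (0.15).

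Chromosome condensation genes were lower by a median of -0.63, and 6 of the 10 were at least 1.5-fold lower. Condensins share the SMC2 and SMC4 ATPases and differ in their other subunits, with condensin I reaching chromosomes after the nuclear envelope breaks down and condensin II already inside the nucleus. Smc2 had 4.61 FPKM in siMalat1 and 6.73 FPKM in siNC (-0.53), and Smc4 had 16.1 FPKM in siMalat1 and 21.1 FPKM in siNC (-0.38). The subunits particular to condensin I were each at least 1.5-fold lower, but with a pseudocount of 1 FPKM Ncapg (-0.51) and Ncapd2 (-0.57) fell short of that line, as did Ncapd2 (-0.58) with the median of all genes set to 0. Ncaph had 6.04 FPKM in siMalat1 and 10.3 FPKM in siNC (-0.76), Ncapg had 2.65 FPKM in siMalat1 and 4.20 FPKM in siNC (-0.65), and Ncapd2 had 9.40 FPKM in siMalat1 and 14.5 FPKM in siNC (-0.62).

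Of the subunits particular to condensin II, none was 1.5-fold lower. Ncapg2 had 1.90 FPKM in siMalat1 and 2.78 FPKM in siNC (-0.53), and Ncapd3 had 2.89 FPKM in siMalat1 and 3.60 FPKM in siNC (-0.31). Ncaph2, which is not one of the 48 and was looked up after the others' values were known, had 49.1 FPKM in siMalat1 and 47.0 FPKM in siNC (0.06), and it shares a locus with another gene. The summed level of the 3 subunits was 18.1 FPKM in siMalat1 and 29.0 FPKM in siNC for condensin I, and 53.9 FPKM in siMalat1 and 53.4 FPKM in siNC for condensin II. Ncaph2 made up most of the condensin II sum in both libraries.

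Top2a, the topoisomerase that untangles sister chromatids, had 14.0 FPKM in siMalat1 and 22.7 FPKM in siNC (-0.70). Mki67, whose Ki-67 protein coats mitotic chromosomes, had 5.67 FPKM in siMalat1 and 9.67 FPKM in siNC (-0.76). Cdca2, a protein phosphatase 1 subunit that is also known as Repo-Man, had 1.90 FPKM in siMalat1 and 3.37 FPKM in siNC (-0.79). These chromosome-bound factors were thus among the most reduced of the set. Top2b, the paralog that nondividing cells also use and that was named after its values were seen, had 29.3 FPKM in siMalat1 and 31.8 FPKM in siNC (-0.12).

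The 5 spindle assembly factors were all lower in siMalat1, with a median of -0.65, and 3 of them by at least 1.5-fold. Tpx2, which activates Aurora A on spindle microtubules, had 7.80 FPKM in siMalat1 and 12.3 FPKM in siNC (-0.65). Dlgap5, known as HURP, had 4.35 FPKM in siMalat1 and 6.93 FPKM in siNC (-0.66), and Aspm, a spindle pole protein, had 1.26 FPKM in siMalat1 and 2.03 FPKM in siNC (-0.65). These 3 differed by nearly the same factor while their levels spanned a wide range. Hmmr, a hyaluronan receptor that also binds spindle microtubules, had 4.83 FPKM in siMalat1 and 7.05 FPKM in siNC (-0.54). Nusap1, a microtubule bundling protein, had 5.46 FPKM in siMalat1 and 7.83 FPKM in siNC (-0.51).

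The 7 cytokinesis genes were lower in a narrow band, with a median of -0.52. Anln, the anillin scaffold of the contractile ring, had 9.16 FPKM in siMalat1 and 14.1 FPKM in siNC (-0.62). Ect2, the exchange factor that activates RhoA at the cell equator, had 3.10 FPKM in siMalat1 and 4.81 FPKM in siNC (-0.62). Racgap1, the centralspindlin subunit that recruits it, had 25.6 FPKM in siMalat1 and 36.7 FPKM in siNC (-0.52). Prc1, which bundles the microtubules of the central spindle, had 16.9 FPKM in siMalat1 and 24.2 FPKM in siNC (-0.51).

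The genes that act later in division were lower too. Cep55, which recruits the abscission machinery to the midbody, had 3.17 FPKM in siMalat1 and 4.81 FPKM in siNC (-0.59). Cit, the citron kinase of the midbody, had 1.54 FPKM in siMalat1 and 2.22 FPKM in siNC (-0.50). Shcbp1, a binding partner of centralspindlin, had 3.45 FPKM in siMalat1 and 4.47 FPKM in siNC (-0.36), the smallest difference of the 7.

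Genes of the ring and of abscission that cells also use outside division differed less. Of 17 actomyosin ring and ESCRT genes, 9 were lower (52.9%, against 57.5% of all genes tested) and 8 higher in siMalat1. The median was -0.09, and 2 were at least 1.5-fold lower, against 1.93% of all genes tested. Those, of which Diap3 was named after its values were seen, were Chmp4c, the ESCRT subunit of the abscission checkpoint, with 1.46 FPKM in siMalat1 and 2.32 FPKM in siNC (-0.63), and Diap3, a formin, with 5.74 FPKM in siMalat1 and 8.77 FPKM in siNC (-0.60). The highest was Tsg101, an ESCRT-I subunit, with 35.0 FPKM in siMalat1 and 31.9 FPKM in siNC (0.14).

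Gtse1, a microtubule-binding protein that restrains p53 in G2 (chromosome 15, 85690137 to 85707003 in mm9), differed most of the 48. It had 4.17 FPKM in siMalat1 and 7.79 FPKM in siNC, a 1.87-fold lower value. Foxm1, the forkhead factor that drives many G2 genes, had 7.40 FPKM in siMalat1 and 10.9 FPKM in siNC (-0.55), close to the median of the 48 genes. Cdca3, also called TOME-1 and linked to the destruction of WEE1, had 11.2 FPKM in siMalat1 and 14.5 FPKM in siNC (-0.37).

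The 1.5-fold line passes through the middle of the set rather than between separate clusters. Just past it lay Cep55 and Nek2 (each -0.59), and just short of it lay Birc5 (-0.57) and Cdc20 (-0.56). With the line drawn at 0.32 on the log2 scale, 43 of the 48 genes were lower by at least that much, against 8.6% of all genes tested. The 5 others were Ncapd3, Cdc25c, Plk4, Cdc25a and Ube2s.

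Low values scatter more than high ones, so the 48 genes were also read against genes of like abundance. In the range of 1 to 5 FPKM, where 5% of the 2554 genes lay below -0.59, 5 of the 13 mitotic genes did. In the range of 5 to 20 FPKM the 5th percentile of 4224 genes was -0.39, and 22 of 27 mitotic genes lay below it. In the range of 20 to 100 FPKM it was -0.31 over 3474 genes, and 7 of 8 mitotic genes lay below it, Ube2s being the exception. No mitotic gene lay above the 95th percentile of its range, which was 0.32 for the range that holds Ube2s. Malat1 falls in the same range, and its difference of -0.29 was inside both percentiles. Over the 48 genes, mean FPKM and the difference were nearly unrelated (Spearman's rho = 0.03, n = 48 genes of the same 2 libraries, a description across genes that are not independent).

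**Figure D2:**
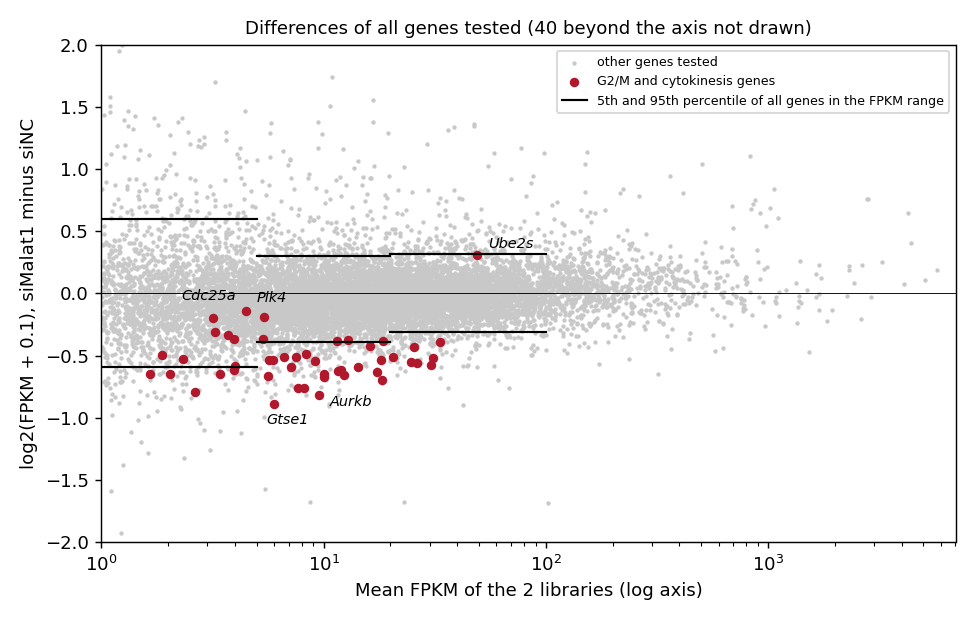
Difference between siMalat1 and siNC on the log2(FPKM + 0.1) scale against the mean FPKM of the libraries (log axis), for the 48 G2/M and cytokinesis genes (red) and the other genes tested (grey), with black lines at the 5th and 95th percentile of all genes in 3 FPKM ranges. In the range of 5 to 20 FPKM, 22 of 27 red points lie below the lower line, and Ube2s is the red point above 0.

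Loci shared between genes limit 7 of the 48 values. Ccna2, Cdc20, Smc4, Ncapd2, Ncapg, Nusap1 and Foxm1 share a locus in the table with another gene, so that fragments of overlapping genes may not be fully separated. The partner went the other way for Ccna2 (Exosc9, 28.1 FPKM in siMalat1 and 23.5 FPKM in siNC) and was nearly level for Cdc20 (Elovl1, 59.0 FPKM in siMalat1 and 62.2 FPKM in siNC). It was lower too for Nusap1 (Oip5, 1.66 FPKM in siMalat1 and 2.29 FPKM in siNC). These partners were named after their values were seen. Among the 41 genes with a locus of their own, 40 were lower in siMalat1, with a median of -0.53.

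Gene lists of the same processes showed which neighbours moved with the 48 genes. Among 12 genes that control CDK1 at mitotic entry, 8 were lower (66.7%, against 57.5% of all genes tested). At least 1.5-fold lower was 1 of them, and the median was -0.05. The lowest was Pkmyt1, a kinase that inhibits CDK1, with 2.105 FPKM in siMalat1 and 3.31 FPKM in siNC (-0.63) at a locus it shares with another gene, and the highest was Ppp2ca, a catalytic subunit of protein phosphatase 2A, with 231 FPKM in siMalat1 and 208 FPKM in siNC (0.15). The other inhibitory kinase, Wee1, had 3.09 FPKM in siMalat1 and 3.93 FPKM in siNC (-0.34), and Mastl, the Greatwall kinase, had 2.78 FPKM in siMalat1 and 3.96 FPKM in siNC (-0.50). Wee1 and Mastl were chosen after their values were seen. Both inhibitory kinases were lower in siMalat1, while the phosphatase subunit was not. In the range of 1 to 5 FPKM, however, the 5th percentile of all genes was -0.59. Wee1 and Mastl thus lay within the spread of genes of like abundance.

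The cohesin ring and its loader, which hold the sister chromatids that condensins compact, were lower in all 9 genes tested but by less, with a median of -0.17 and none at 1.5-fold. They ran from Pds5b, with 6.86 FPKM in siMalat1 and 8.14 FPKM in siNC (-0.24), to Smc3, with 22.4 FPKM in siMalat1 and 24.3 FPKM in siNC (-0.11). Paralogs of the 48 genes had a median of -0.05 over the 10 tested of 14 found. This list is not free of mitotic genes, since it holds Ncaph2 of condensin II. It ran from Smc6, of the SMC5/6 complex, with 15.7 FPKM in siMalat1 and 17.6 FPKM in siNC (-0.17), to Plk2 with 116 FPKM in siMalat1 and 107 FPKM in siNC (0.11). Aurkc, the Aurora of germ cells, likewise named after its values were seen, was near 0, with 0.0217 FPKM in siMalat1 and 0.0614 FPKM in siNC.

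Other proliferation genes were lower to a like degree, where 57.5% of all genes tested were lower and 1.93% at least 1.5-fold lower. The 24 kinetochore and checkpoint genes tested had a median of -0.50, with 23 lower and 7 of them by at least 1.5-fold, from Cenpe, a kinetochore motor, with 3.26 FPKM in siMalat1 and 5.70 FPKM in siNC, to Zw10 with 6.58 FPKM in siMalat1 and 6.50 FPKM in siNC. The 11 mitotic kinesins tested were all lower, with a median of -0.57 and 5 at 1.5-fold or more, from Kifc1, with 5.46 FPKM in siMalat1 and 9.28 FPKM in siNC, to Kif18a with 1.21 FPKM in siMalat1 and 1.58 FPKM in siNC. The 11 genes of the replicative helicase, which acts in S phase, were all lower with a median of -0.41, from Gins2, with 3.34 FPKM in siMalat1 and 14.4 FPKM in siNC (-2.08), to Gins1 with 4.37 FPKM in siMalat1 and 4.49 FPKM in siNC. Gins2 shares its locus with another gene, and its difference lay far from the next lowest of the list, Mcm5 at -0.71, which was named after its values were seen. The 15 reference genes had a median of 0.01, whose sign turned with scaling and without shared loci, and ran from Actb, with 2447 FPKM in siMalat1 and 2818 FPKM in siNC (-0.20), to Tuba1a with 983 FPKM in siMalat1 and 826 FPKM in siNC (0.25). These reference genes thus lay on both sides of 0. Gapdh had 409 FPKM in siMalat1 and 415 FPKM in siNC.

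**Figure D3:**
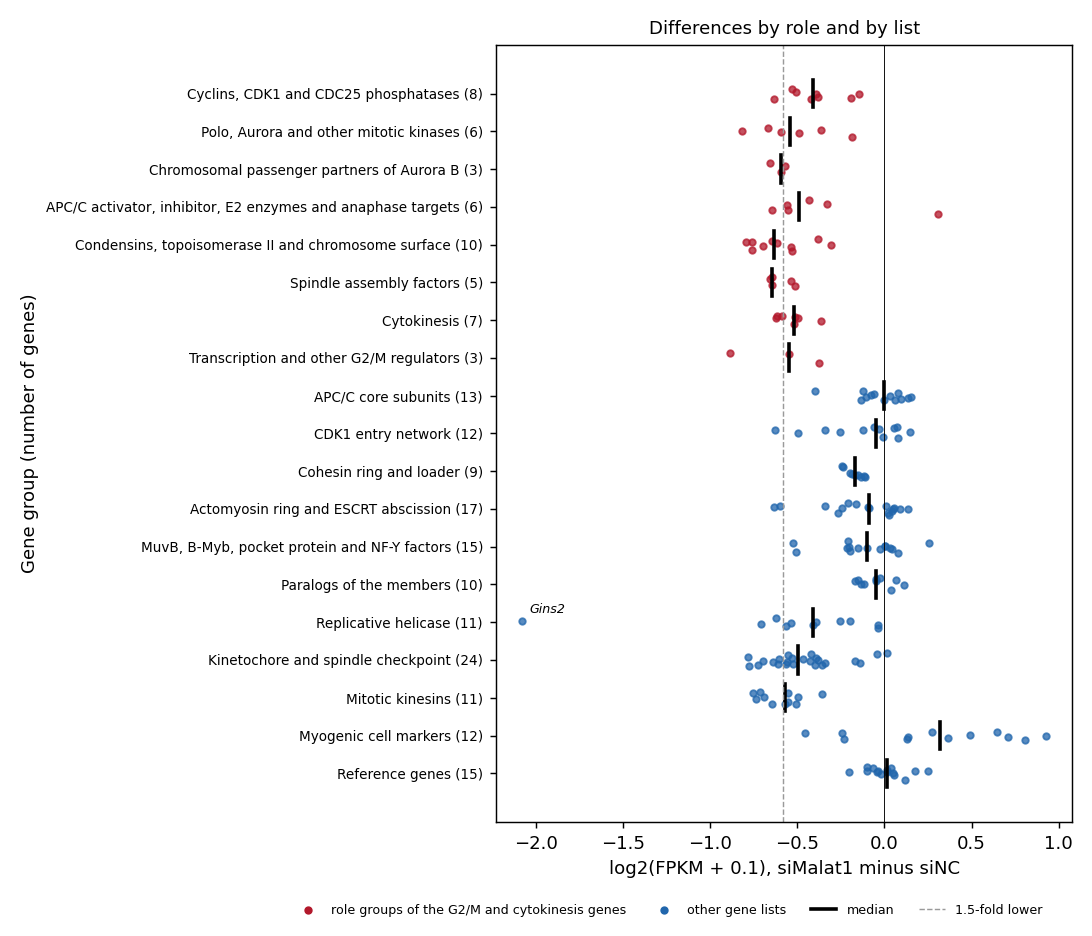
Difference between siMalat1 and siNC on the log2(FPKM + 0.1) scale for each gene of the 8 role groups (red) and of the other lists with genes tested (blue), 1 point per gene, with the median of each group as a black bar, 0 as a solid line and 1.5-fold lower as a dashed line. The medians of the role groups lie between -0.65 (spindle assembly factors) and -0.41 (cyclins, CDK1 and CDC25 phosphatases), and that of the APC/C core subunits lies at -0.0045, with a sign that turned with scaling.

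Complexes known to act at the CHR and CCAAT letters were measured as well, with partners that need not read the letters themselves. The list held 15 genes of the MuvB complex, B-MYB, the pocket proteins, their E2F and DP partners and NF-Y. Of these, 9 were lower in siMalat1 (60%, against 57.5% of all genes tested), none by 1.5-fold. The median was -0.10, and its sign turned when genes under 5 FPKM were left out. The lowest was Rbl1, which encodes the pocket protein p107, with 2.71 FPKM in siMalat1 and 3.93 FPKM in siNC (-0.52), and the highest was Lin52, a MuvB subunit, with 3.60 FPKM in siMalat1 and 3.01 FPKM in siNC (0.25). Mybl2, which encodes B-MYB and was named after its values were seen, had 1.66 FPKM in siMalat1 and 2.39 FPKM in siNC (-0.51).

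In the promoter windows, searched on both strands, the CHR letters TTTGAA were found in 28 of the 43 windows of the mitotic genes (65.1%), against 11.5% of 9896 windows of the other genes tested and 17.9% of all 32851 windows. Within 100 bases before the start and 50 after it, 26 of the 43 windows held them (60.5%), against 4.30% of windows of the other genes tested and 8.01% of all. CCAAT was found in 29 of the 43 windows (67.4%), against 37.7% of the other genes tested and 37.4% of all windows. Both sets of letters lay within that shorter stretch in 18 of the 43 windows (41.9%), against 1.35% of the other genes tested and 1.93% of all. The letters GGCGG, a core of the cell cycle-dependent element that can lie beside a CHR, were in 39 of the 43 windows (90.7%), against 80.9% of the other genes tested and 48.8% of all, so these letters were common in the windows of expressed genes in general. Matches of different motifs overlapped 3 times in the windows of the mitotic genes.

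The CHR letters sat close to the start. In the printed stretches their first base lay at position -18 for Cdc20, at -71 and -15 for Cdk1, at -27 for Espl1, at -29 on the opposite strand for Ube2c and at -30 for both Ncapg and Prc1, counting bases before the start as negative. Ube2s had neither the CHR nor the CCAAT letters anywhere in its window. It was not alone in this, since 8 of the 38 genes had neither, and the median difference of those 8 was -0.46. The 25 genes with the CHR letters had a median of -0.55 with 11 at least 1.5-fold lower, and the 13 without them had a median of -0.43 with 3 at least 1.5-fold lower. Gtse1, the most reduced gene, was among those without them. The 10 genes with no window, Aurkb and Cdca2 among them, are not in this split. Of the 20 genes at least 1.5-fold lower, 14 had a window. A match of letters is a description of the sequence and does not show that a factor was bound there in these cells.

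**Figure D4:**
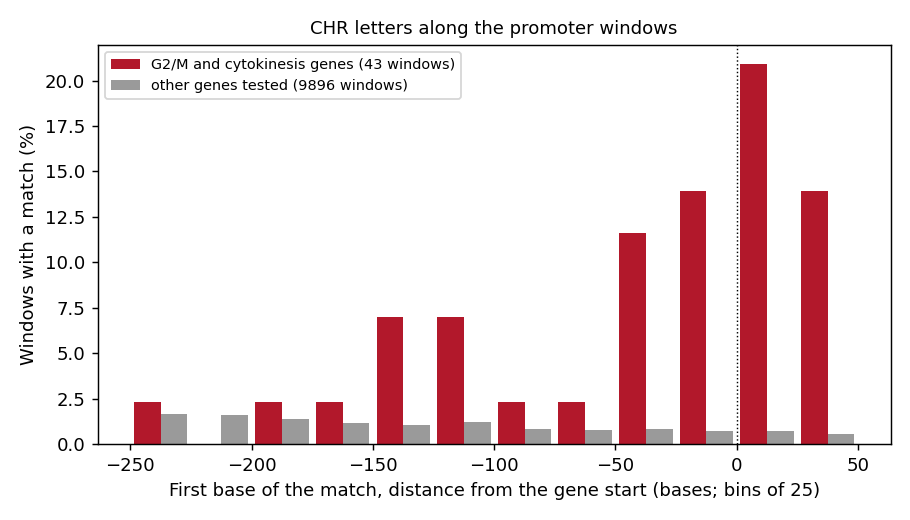
Share of promoter windows (%) with the CHR letters TTTGAA on either strand whose first base falls in each bin of 25 bases, by distance from the gene start in bases, for the mitotic genes (red, 43 windows) and the other genes tested (grey, 9896 windows). The red bars are tallest just after the start, where 20.9% of windows had a match against 0.717% of the others.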

How the data were processed

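By the study's methods and the submitters' processing notes, the authors aligned paired fragments to the mm9 genome using TopHat2 2.0.9, took abundances from Cufflinks 2.1.1 and ran Cuffdiff 2.1.1 on the pair of libraries. The deposited table gives the authors' FPKM per gene for each library. Its columns of the authors' own comparison, the natural log of the fold change and a yes or no call, were not used. The gene annotation and the strand of the libraries are not given in the sources used here, nor is how fragments shared between similar genes were assigned.

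FPKM are normalized to library size and transcript length, so total counts, and with them the counting error of a value, are unknown. In 1937 genes that averaged no more than 0.1 FPKM but were above 0 in both libraries, ratios of siMalat1 over siNC lay within 0.004 on the natural log scale of small whole-number ratios in 366 genes if 1 read was worth 1.09 times as much in siMalat1. The median over other steps was 31 genes, so the libraries had relative depths near this ratio, but whole reads were not recovered and no count test was run.

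Differences are log2(FPKM + 0.1) in siMalat1 minus siNC, over the 11132 genes that averaged 1 FPKM or more. The pseudocount understates changes of low genes. No significance test was run, since each condition had 1 library. The members, the role groups and the lists were chosen with earlier results of these data known. The text names the 48 genes, the highest and lowest gene of each list, Malat1, Myod1 and Gapdh, and any other gene is said to be chosen after its values were seen. Anapc15, Bora and Mau2 were not found by symbol. Table starts were raised by 1, since 6044 of 16386 loci of single genes then had the RefSeq length, against 414 as given. Promoter sequences came from RefSeq (GRCm38.p6) and were matched by symbol, and no coordinate was carried between builds. Tools were pandas 2.3.3 and numpy 2.4.6 under Python 3.11.15, with scipy 1.17.1 for the rank correlation and matplotlib 3.10.9 for plots. The arithmetic of the difference and counts was checked on simulated data. Their spread was smaller than that of these libraries, so the check does not measure how reliable the counts are. Alternatives were the pseudocount, the filter, 3 scalings, the loci shared between genes and the fold used for counts.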

Additional observations from a re-analysis of the deposited data

How the results depend on the processing

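The number of the 48 genes that were lower in siMalat1 was 47 under every setting that kept all 48, and no gene changed direction under any setting. Only the scalings could have turned the direction of a gene. The pseudocount cannot do so, and the filter, the shared loci and the fold leave the value of each kept gene as it was. The scalings moved values by little, and Cdc25a, with the smallest difference, ran from -0.19 to -0.11 across settings. The unchanged count therefore says little about how reliable the directions are. The number at least 1.5-fold lower was 20, and it was 10 at a pseudocount of 1 FPKM, while 43 genes passed a line of 0.32 on the log2 scale and 0 passed one of 2-fold. It was 14 with the median of all genes set to 0, which moves every difference up by 0.04, 26 with FPKM scaled to the same sum and 17 with the 75th percentile made equal, where the shares of all genes tested were 1.54%, 2.43% and 1.67%. The median of the 48 genes stayed between -0.59 and -0.49. At a pseudocount of 1 FPKM the median was -0.47 for the spindle assembly factors and -0.38 for the kinetochore list, since the pseudocount shrinks low values. With a minimum mean of 5 FPKM, which tests fewer genes, the median was -0.37 for the kinetochore list, 0.0035 for the MuvB, B-MYB, pocket protein and NF-Y list and -0.54 for the replicative helicase. Across settings, 525 values moved by less than the tolerance of 0.1 on the log2 scale or of 1.5 times for a count, and 17 moved by more. Of the 525, 355 were values of single genes. Settings that only leave genes out repeat the value of each gene they keep, so the 525 overstate how stable the values were. For single genes only the scalings could have turned a sign, and no value at or past 1.5-fold changed sign. The medians near 0 did, running from -0.06 to 0.03 for the APC/C core subunits, from -0.15 to 0.0035 for the MuvB list and from -0.04 to 0.05 for the reference genes. Leaving out a replicate was not possible with 1 library per condition. No paired analysis was possible because each condition has 1 library and the labels give no replicate numbers.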

Other observations

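The promoter letters that most of the mitotic genes share were also looked up in the other genes tested, after the values above were known. Among those other genes, 130 had both the CHR and the CCAAT letters between 100 bases before and 50 bases after the start. Of these, 14 were at least 1.5-fold lower in siMalat1 (10.8%), and their median difference was -0.10. Of 407 genes with the CHR letters in that stretch, 18 were at least 1.5-fold lower (4.42%), and of 7324 genes without them, 82 were (1.12%). Most genes with the letters therefore differed little, and the share at 1.5-fold or more was larger among them. The other genes tested still include the kinesin and kinetochore lists above. Of the 14, Kifc1, Kif23, Kif18b, Kif11, Kif4 and Cenpf were already counted there, so the larger share is partly the same result.

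Of the 14 genes, 6 encode kinesin motors: Kifc1, Kif23, Kif18b, Kif11, Kifc5b and Kif4. Kif23, the motor subunit of centralspindlin and partner of Racgap1, had 5.35 FPKM in siMalat1 and 8.97 FPKM in siNC (-0.73). Kif11, the motor that pushes spindle poles apart, had 3.69 FPKM in siMalat1 and 6.03 FPKM in siNC (-0.69). Kntc1, the ROD subunit of the kinetochore RZZ complex, had 1.00 FPKM in siMalat1 and 1.94 FPKM in siNC (-0.88), and of the other subunits of that complex Zwilch had 2.28 FPKM in siMalat1 and 3.39 FPKM in siNC (-0.55), at a locus it shares with another gene, while Zw10 was nearly level. Cenpf, a kinetochore protein that accumulates in G2, had 2.01 FPKM in siMalat1 and 3.51 FPKM in siNC (-0.78). The remaining 6 were Asf1b, Fam83d, Ckap2l, Prr11, Inha and Spag5, whose differences ran from -0.67 to -0.60. Inha lay near the filter of 1 FPKM, with 0.870 FPKM in siMalat1 and 1.40 FPKM in siNC. Kifc1 and Kifc5b are similar genes, so their values may share fragments.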
